A study of Homo sapiens with 6 samples.

Results

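Insulin and insulin-like growth factor (IGF) signalling was read in 10 genes of SZ95 cells, an immortalised human sebaceous gland line, after transfection with a mock plasmid or with a TRPV3-overexpression plasmid. The 10 genes were taken by name, from a choice made with earlier results of these data known: the receptors INSR, IGF1R and IGF2R, the adaptors IRS1 and IRS2, the transcription factors FOXO1 and FOXO3, and the binding proteins IGFBP3, IGFBP4 and IGFBP6. All 10 were found among the 58735 genes of the deposited table, and 9 of them passed the filter on low values that 12177 genes passed in all; INSR did not. Both groups held 3 libraries of the same line, collected at 24 h per the labels. The mock group is labelled WT and received the mock plasmid, and the other group is labelled as overexpressing TRPV3, a calcium-permeable cation channel, from a plasmid. What promoter drives the channel, and which share of cells took up either plasmid, were not stated in the labels. The design text calls the replicates biological and names inflammation of sebocytes as the question.

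Insulin and IGFs bind the receptor tyrosine kinases INSR and IGF1R, which phosphorylate the docking proteins IRS1 and IRS2. These recruit PI3-kinase, which activates the kinase AKT, and AKT phosphorylates FOXO factors and so keeps them out of the nucleus. IGF2R, which also carries mannose 6-phosphate tagged enzymes to lysosomes, removes IGF2 from the cell surface, and IGF binding proteins hold IGFs outside the cell. In sebaceous glands insulin and IGF1 are known as stimuli of sebocyte growth and lipid synthesis.

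Promoter windows of 300 bases, from 250 before to 50 after the RefSeq start site (GRCh38.p14), were available for 10 of the 10 genes. Those of INSR and IGF1R are shown because these sister receptors differed most in level, and that of IGFBP3 because it was the member whose 2 groups of libraries did not overlap. They are written 5′ to 3′ along the gene's strand, and capitals mark the GC box GGGCGG on either strand, adjoining matches included. The INSR window lies at chr19:7294365-7294664 on the minus strand, that of IGF1R at chr15:98648289-98648588 on the plus strand, and that of IGFBP3 at chr7:45921223-45921522 on the minus strand. The INSR window is wholly upstream of INSR as placed in the deposited table, and the IGFBP3 window is wholly inside IGFBP3 as placed there.
INSR: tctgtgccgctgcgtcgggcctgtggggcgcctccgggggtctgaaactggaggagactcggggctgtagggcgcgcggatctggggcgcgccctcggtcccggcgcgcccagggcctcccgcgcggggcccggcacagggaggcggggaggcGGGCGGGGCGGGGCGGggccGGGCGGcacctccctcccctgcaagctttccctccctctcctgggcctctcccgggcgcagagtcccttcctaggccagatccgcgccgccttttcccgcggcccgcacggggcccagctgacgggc
IGF1R: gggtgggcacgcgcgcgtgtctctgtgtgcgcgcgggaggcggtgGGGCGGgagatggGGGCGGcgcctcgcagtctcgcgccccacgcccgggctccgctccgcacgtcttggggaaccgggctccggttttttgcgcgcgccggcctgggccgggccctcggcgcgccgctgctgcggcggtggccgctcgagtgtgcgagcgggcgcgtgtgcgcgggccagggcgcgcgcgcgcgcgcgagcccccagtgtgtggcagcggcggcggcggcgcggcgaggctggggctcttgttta
IGFBP3: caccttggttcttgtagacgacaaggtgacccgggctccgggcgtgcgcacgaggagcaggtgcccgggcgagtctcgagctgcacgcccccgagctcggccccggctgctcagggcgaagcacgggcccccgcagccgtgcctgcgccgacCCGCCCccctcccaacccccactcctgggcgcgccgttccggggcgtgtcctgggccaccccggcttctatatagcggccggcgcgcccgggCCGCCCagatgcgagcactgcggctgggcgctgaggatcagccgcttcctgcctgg
The INSR window held 4 GC boxes, that of IGF1R 2 and that of IGFBP3 2, and 45% of the 35116 RefSeq windows of this length held at least 1. Their GC content was 78.3%, 79.7% and 74.7%, against a median of 58.7% over all windows.

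Of 3 further motifs searched on both strands in all member windows, each had 1 match. The FOXO site GTAAACA stood in the IGFBP6 window alone (3.42% of all windows hold it), the insulin response element core CAAAACA in that of IRS2 alone, on the reverse strand (4.92%), and the TATA box TATAAA in that of IGFBP4 alone (11.5%). Each match is shown in capitals with 10 bases on either side.
IGFBP6: aatttgggaaGTAAACAgaaactggaa
IRS2: agtcacatgtTGTTTTGctcttcttag
IGFBP4: cagggaccggTATAAAgtccggggga
These are matches of exact letters, and no binding was measured. Near spellings were not searched, such as the TATATA in the IGFBP3 window printed above.

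The libraries held between 16015998 and 18365785 whole reads, recovered from the deposited FPKM values (fragments per kilobase of exons, scaled by a divisor per library). TRPV3 itself lay between 0.359 and 0.437 FPKM in the mock libraries and between 536 and 738 FPKM in the TRPV3 libraries, as their labels say (limma adjusted p = 2.7e-07; exact two-sided permutation p = 0.1, the smallest that 3 against 3 libraries can give). TRPV3 replicate 1 stood apart from the other libraries by gene length, as described below, and mock replicate 3 had reads in 34467 genes against 22311 to 23072 in the other libraries. Of 13 sebocyte markers 9 averaged at least 1 FPKM, led by the keratin KRT7, and MC5R, AWAT2 and DGAT2L6 were among those below. The summed sebocyte markers lay between 853 and 895 FPKM with mock and 874 and 951 FPKM with TRPV3. The 7 fibroblast markers summed to between 2.11 and 3.05 FPKM in any library.

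Levels are compared between members in FPKM, which is per length. IGFBP4 was highest, at a mean of 135 FPKM over the 6 libraries, above 98.9% of the 19951 protein-coding genes in the table. IGFBP3 followed at 60.7 FPKM and IGFBP6 at 31.3 FPKM, and no library of one overlapped any of the next. IRS2 (12 FPKM), FOXO3 (10.5), IGF2R (9.6) and IGF1R (7.85) came next. The ranges of neighbours in this order overlapped over the libraries, while those of IRS2 (lowest 8.96 FPKM) and IGF1R (highest 8.93 FPKM) just did not. FOXO1 (1.25 FPKM) and IRS1 (1.17 FPKM) overlapped each other well below these. INSR was last at 0.043 FPKM, above 29.8% of protein-coding genes. In total RNA of a culture, fewer cells that express a gene and less of its RNA per cell cannot be told apart.

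**Figure D1:**
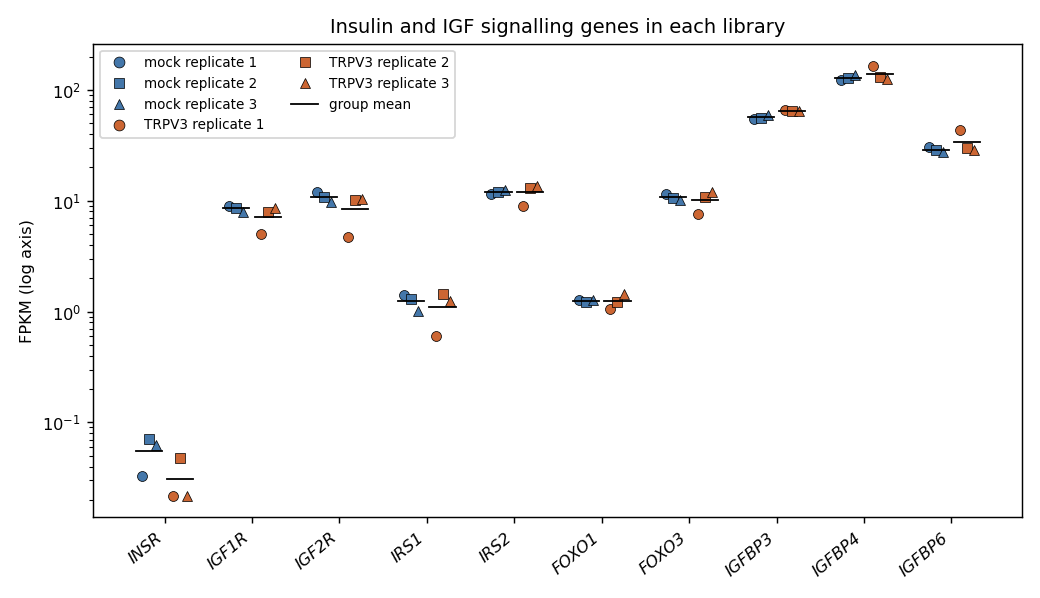
FPKM on a log axis for the 10 members in each library, mock in blue and TRPV3 in orange, with marker shapes for replicates 1 to 3 and a line at each group mean. IGFBP4 lies highest and INSR lowest, and TRPV3 replicate 1 (orange circle) is the lowest library for the 7 members that are not binding proteins and the highest for the 3 that are.

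None of the 9 tested members passed the adjusted limma test between TRPV3 and mock. Their adjusted p-values lay between 0.755 and 0.973. Over all 12177 genes tested, 5 rose (0.0411%) and 0 fell (0.00%), or 5 and 1 under TPM scaling and with a pseudocount of 0.1, so that calls were rare everywhere and a share of 0 of 9 is near the background. The 1 member with an unadjusted limma p under 0.05 was IGFBP3, higher with TRPV3, where 3.28% of all genes were higher and 1.21% lower at that level. Limma-voom on the recovered reads also called 0 of the 9 (0.0493% of all genes), as did limma without TRPV3 replicate 1 (0.0657%). With sample quality weights voom called 1, IGFBP3 (1.22%). IGFBP3 was also the 1 member with all TRPV3 libraries higher than all mock libraries, as in 9.49% of all genes, and 0 members had all of them lower, as in 5.39%. The median log2 fold change of FPKM + 1 over the 9 tested members was -0.04, and that over all tested genes was 0.01.

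IGFBP3, the main IGF carrier of the circulation, lay on chromosome 7 (45912245 to 45921874, minus strand, hg38, ENSG00000146674). It was at 54.7, 55.8 and 59.2 FPKM in mock replicates 1 to 3 and at 65.5, 64.8 and 64 FPKM in TRPV3 replicates 1 to 3. The groups were separate, and the TRPV3 libraries were closer to each other than the mock libraries were. The means were 56.6 ± 2.35 and 64.8 ± 0.748 FPKM (SD, n = 3 each). The log2 fold change was 0.19 (SE 0.07, 95% interval 0.02 to 0.37, unadjusted p = 0.0326, limma adjusted p = 0.755).

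Of the 9 tested members, IGFBP3 moved least in log2 fold change when TRPV3 replicate 1 was left out. Without that library its log2 fold change was 0.18 (95% interval 0.07 to 0.30, limma adjusted p = 0.444), and with the gene-length trend removed it was 0.17 (limma adjusted p = 0.750). When any single library was left out the fold change stayed between 0.17 and 0.23, but the unadjusted limma p was above 0.05 in 4 of the 6 such fits. It was 0.121 without mock replicate 1, 0.121 without mock replicate 2, 0.0950 without TRPV3 replicate 2 and 0.0708 without TRPV3 replicate 3. It fell to 0.10 under TPM scaling and 0.09 under quantile normalization, with unadjusted limma p-values of 0.296 and 0.309. It was called by voom with sample quality weights (0.21, adjusted p = 0.0314), a setting that called 148 genes in all. It was also called by voom with both TRPV3 replicate 1 and mock replicate 3 left out (0.22, adjusted p = 0.00442), where 1.24% were. That fit drops the mock library in which IGFBP3 was highest and keeps mock replicates 1 and 2 and TRPV3 replicates 2 and 3. IGFBP3 was not called by voom without TRPV3 replicate 1 alone (0.19, adjusted p = 0.279), where 0.583% were. Both of these choices of libraries for voom were made after seeing the data. Over all alternatives the adjusted limma or voom p of IGFBP3 ran from 0.00442 to 0.966, and its fold change was above 0 in 20 of 20. These include the changed filters, limma without trend, the replicate block and median-of-ratios scaling. Such settings leave the fold change itself as it was, so its sign could not turn in them.

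IGFBP4, a binding protein that the protease PAPPA cleaves, lay on chromosome 17 (40443461 to 40457731, plus strand, ENSG00000141753). It was at 122, 129 and 135 FPKM with mock and 166, 130 and 125 FPKM with TRPV3. TRPV3 replicate 1 was the highest of the 6 and the other TRPV3 libraries lay within the mock range. Its log2 fold change of 0.11 (95% interval -0.18 to 0.41, limma adjusted p = 0.765) was -0.01 without that library (95% interval -0.14 to 0.12) and -0.04 under quantile normalization.

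IGFBP6, a binding protein with a preference for IGF2, lay on chromosome 12 (53097436 to 53102345, plus strand, ENSG00000167779). It was at 30.3, 28.5 and 27.5 FPKM with mock and 43.1, 30 and 28.6 FPKM with TRPV3. Again TRPV3 replicate 1 alone lay above the mock libraries. Its log2 fold change of 0.21 (95% interval -0.16 to 0.57, limma adjusted p = 0.755) was 0.03 without that library (95% interval -0.11 to 0.16).

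The 3 members together made up a nearly constant part of the binding protein pool, while the share of IGFBP3 varied more. Over IGFBP1 to IGFBP7 the summed level lay between 219 and 234 FPKM with mock and was 292, 237 and 230 FPKM with TRPV3. IGFBP4 made up 54.5% to 57.4% of that sum in any library and IGFBP3 22.5% to 27.8%. The IGFBP3 share was 25%, 24.6% and 25.3% with mock and 22.5%, 27.3% and 27.8% with TRPV3. The 3 members together held 94.1% to 94.8% in all 6 libraries. The ratio of IGFBP4 to IGFBP3 was 2.24, 2.31 and 2.27 with mock and 2.53, 2 and 1.96 with TRPV3. TRPV3 replicate 1 lay above all mock libraries in this ratio and TRPV3 replicates 2 and 3 lay below them, so that the groups overlapped. In the IGFBP3 share the order was the reverse.

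Of the receptors, IGF1R was expressed and INSR was barely detected. INSR, the insulin receptor (chromosome 19, 7112255 to 7294034, minus strand, ENSG00000171105), was covered by 6, 12 and 12 reads with mock and by 4, 9 and 4 reads with TRPV3, over 10451 bases of exons. That is 30 reads against 17, or 0.0552 FPKM (95% Poisson interval 0.0372 to 0.0788) against 0.0307 FPKM (0.0179 to 0.0491). The intervals cover counting error only, and 3 reads, the limit that 0 reads would still allow, correspond to between 0.0158 and 0.0177 FPKM. The ratio of TRPV3 to mock was 0.556 with an exact 95% interval of 0.288 to 1.04, and the libraries overlapped, so a difference in INSR was not detectable at this depth.

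IGF1R (chromosome 15, 98648539 to 98964530, plus strand, ENSG00000140443) had 1224 to 2186 reads a library. It was at 8.93, 8.68 and 7.95 FPKM with mock and 4.98, 7.99 and 8.56 FPKM with TRPV3. Only TRPV3 replicate 1 lay outside the mock range. Its log2 fold change of -0.25 (95% interval -0.66 to 0.17, limma adjusted p = 0.755) was -0.04 without that library (95% interval -0.20 to 0.12, adjusted p = 0.943). In FPKM, IGF1R exceeded INSR 123-fold to 391-fold in single libraries, a ratio whose spread comes with an INSR count of 4 to 12 reads.

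IGF2R (chromosome 6, 159969099 to 160113507, plus strand, ENSG00000197081), the longest member at 17.8 kb, was at 11.9, 10.7 and 9.8 FPKM with mock and 4.7, 10.2 and 10.4 FPKM with TRPV3. TRPV3 replicates 2 and 3 lay within the mock range and replicate 1 below it. Its log2 fold change of -0.39 was the largest in size among the 9 tested members on the FPKM + 1 scale (95% interval -1.004 to 0.23, limma adjusted p = 0.755), and it was -0.06 without TRPV3 replicate 1 (95% interval -0.25 to 0.13). With mock replicate 3 also left out, a choice made after seeing the data, it was -0.12 by limma (adjusted p = 0.746). By voom it was then -0.13 (unadjusted p = 0.0213, adjusted p = 0.396). The ratio of IGF2R to IGF1R was between 1.21 and 1.33 in 5 libraries and 0.945 in TRPV3 replicate 1.

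Both IRS adaptors were expressed, IRS2 well above IRS1. IRS1 (chromosome 2, 226731317 to 226799759, minus strand, ENSG00000169047) was at 1.42, 1.29 and 1.01 FPKM with mock and 0.598, 1.43 and 1.25 FPKM with TRPV3, from 105 to 255 reads. IRS2 (chromosome 13, 109752698 to 109786568, minus strand, ENSG00000185950) was at 11.6, 11.9 and 12.6 FPKM with mock and 8.96, 13.1 and 13.6 FPKM with TRPV3. In both genes TRPV3 replicate 1 was the lowest library. The ratio of IRS2 to IRS1 ran from 8.17 to 15 over the libraries, and the groups overlapped.

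The sign of the difference in both adaptors turned with TRPV3 replicate 1. The log2 fold change of IRS1 was -0.12 (95% interval -0.53 to 0.29, limma adjusted p = 0.810) and 0.06 without that library (95% interval -0.22 to 0.34). That of IRS2 was -0.04 (95% interval -0.39 to 0.31, limma adjusted p = 0.920) and 0.13 without it (95% interval 0.000401 to 0.27, unadjusted p = 0.0495, adjusted p = 0.705). The other 2 TRPV3 libraries lay above every mock library in IRS2, as they did in 14.1% of all genes tested (10.1% had them below). IRS2 shares 115 exonic bases with the antisense gene AL162497.1, itself covered by no more than 6 reads per library.

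In both FOXO factors TRPV3 replicate 1 was again the lowest library. FOXO1 (chromosome 13, 40469953 to 40666597, minus strand, ENSG00000150907) was at 1.26, 1.23 and 1.28 FPKM with mock and 1.06, 1.23 and 1.45 FPKM with TRPV3, from 116 to 158 reads. FOXO3 (chromosome 6, 108559835 to 108684774, plus strand, ENSG00000118689) was at 11.6, 10.6 and 10.2 FPKM with mock and 7.53, 10.8 and 12.1 FPKM with TRPV3. The TRPV3 libraries lay on both sides of the mock range in both genes. FOXO3 stood at 7.14 to 9.24 times the level of FOXO1 in single libraries, and the groups overlapped in this ratio.

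The log2 fold change of FOXO1 was -0.01 (95% interval -0.25 to 0.23, limma adjusted p = 0.973) and 0.05 without TRPV3 replicate 1. That of FOXO3 was -0.11 (95% interval -0.48 to 0.27, limma adjusted p = 0.810) and 0.07 without it. FOXO1 shares 269 exonic bases with the lincRNA LINC00598 of its own strand, covered by no more than 14 reads per library. The FOXO3 pseudogene FOXO3B had 34 to 65 reads a library, against 1026 to 1631 for FOXO3, and how reads were split between these near-identical genes is uncertain.

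**Figure D2:**
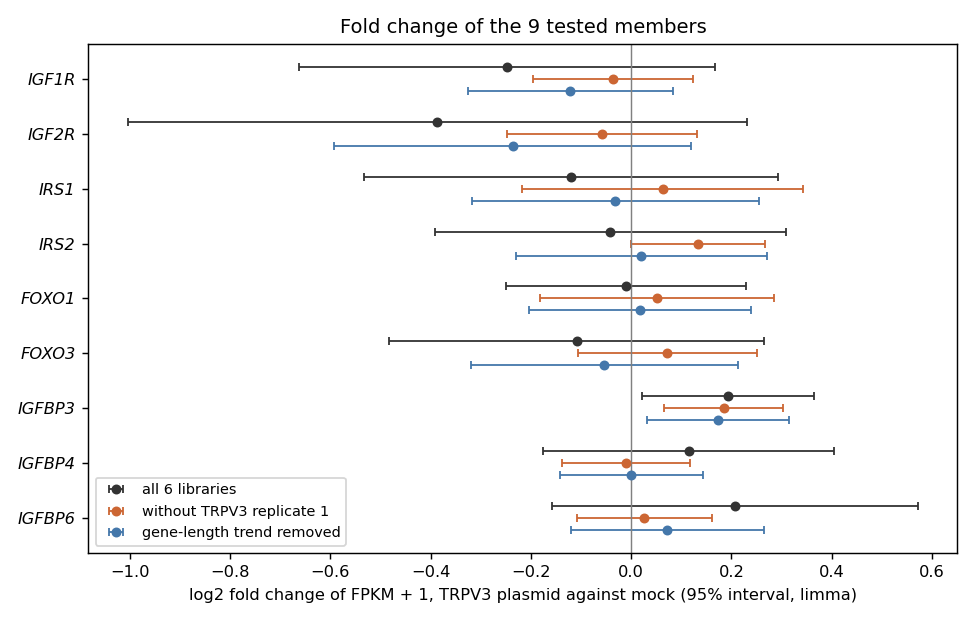
Fitted log2 fold change of FPKM + 1 with its 95% limma interval for the 9 tested members, with all 6 libraries, without TRPV3 replicate 1, and with each library's gene-length trend removed. The intervals narrow without TRPV3 replicate 1; those of IGFBP3 lie above 0 in all 3 fits, and those of IRS2 do so without that library, though no adjusted test was passed.

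TRPV3 replicate 1 was the lowest of the 6 libraries in 7 of 7 members that are not binding proteins and the highest in 3 of 3 binding proteins. In INSR it tied with TRPV3 replicate 3 at 4 reads. The first 7 genes are 6.23 to 17.8 kb long, while IGFBP6, IGFBP4 and IGFBP3 are 1.35, 2.2 and 4.57 kb long. Among all tested genes of at least 6 kb, this library was the lowest in 65.6%, and among those under 2.5 kb it was the highest in 63.3%. Between 2.5 and 6 kb, where IGFBP3 falls, it was the highest in 47.7%. The difference of this library from the mean of TRPV3 replicates 2 and 3 on the log2 scale had a median of 0.39 among all tested genes of 1 to 2 kb and of -0.41 among those of 12 kb or more.

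The members were then set beside genes of like length (the shorter at least 0.8 times the longer). IGF2R differed from the mean of the other TRPV3 libraries by -0.99 in TRPV3 replicate 1, below the 5th percentile (-0.96) of 274 genes of like length, whose median was -0.41. IGF1R differed by -0.63 (median of like genes -0.37), IRS1 by -0.55 (-0.27), FOXO3 by -0.54 (-0.17) and IRS2 by -0.52 (-0.19), all between the 5th and 95th percentiles. FOXO1 differed by -0.19 (-0.09), IGFBP3 by 0.02 (0.02), IGFBP4 by 0.37 (0.30) and IGFBP6 by 0.54 (0.42). Each of the 9 lay on the same side of 0 as the genes of its length. The part of gene length or RNA quality in the group differences of the members was not tested beyond the fits without this library and with the trend removed.

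**Figure D3:**
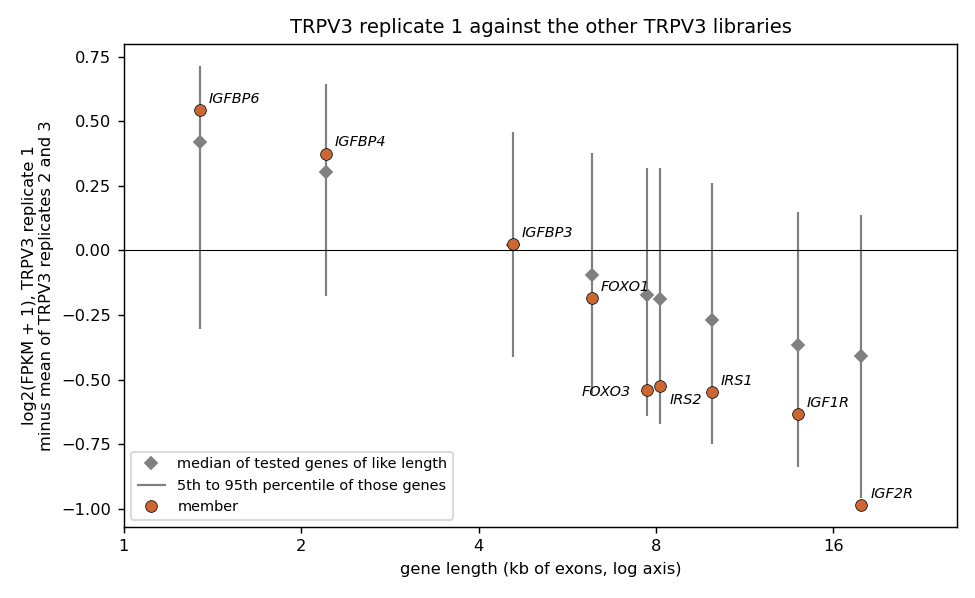
Difference of log2(FPKM + 1) between TRPV3 replicate 1 and the mean of the other TRPV3 libraries against gene length in kb on a log axis, for the 9 tested members (orange), with the median and the 5th to 95th percentile of genes of like length (grey). Members and genes of like length move from above 0 at short length to below 0 at long length, and IGF2R lies just under the 5th percentile.

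The ligands of the pathway were at or near 0. INS had 0 reads in all 6 libraries, which allows up to between 0.212 and 0.238 FPKM at 3 reads. IGF1 had 4 reads and IGF2 had 1, in mock replicate 3 in both cases and in no other library. INSRR, an orphan receptor of the same family, had 7 reads, also in mock replicate 3 alone. Changes in these genes were not detectable at this depth.

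Among 78 other genes of the pathway, 61 were tested and 0 passed the adjusted limma test in either direction, with adjusted limma p-values from 0.755 to 0.998. Voom without quality weights on all libraries also called 0 of the 61. The number with an unadjusted limma p under 0.05 was 2, GADD45A and CDKN1A, both higher with TRPV3. Over all genes 3.28% were higher and 1.21% lower at that level, so 2 of 61 is near the background. The groups did not overlap in 4 with TRPV3 above and in 7 with TRPV3 below, where the shares over all genes are those given above (9.49% and 5.39%). The median log2 fold change was -0.09, and 16 of 61 lay above 0 (26.2%, against 53.0% of all tested genes). Without TRPV3 replicate 1 the median was -0.02 and 24 of 61 lay above 0 (39.3%, against 53.7% of all genes). With the gene-length trend removed the median was -0.06 and 16 of 61 still lay above 0, against 49.9% of all genes. The median length of these 61 genes was 6.66 kb, against 4.59 kb over all tested genes, and TRPV3 replicate 1 was the lowest library in 33 of them (in 35.9% of all tested genes). Under TPM scaling the median was -0.20, where that of all genes was -0.08.

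Genes of PI3-kinase and AKT, the arm that follows the IRS adaptors, mostly had log2 fold changes below 0 in the fit of all libraries. Of 16 tested 0 passed (limma), 15 lay below 0, and the median of -0.14 was -0.04 without TRPV3 replicate 1, the lowest library in 15 of the 16. Without that library 9 lay below 0 and 7 above. The median length of these genes was 9.31 kb, and that library was the lowest in 65.6% of all tested genes of at least 6 kb. With the length trend removed the median log2 fold change was -0.08, with 2 of 16 above 0. PHLPP1, a phosphatase that removes phosphate from AKT, was at 7.74, 6.91 and 7.03 FPKM with mock and 3.79, 6.47 and 6.53 FPKM with TRPV3. Its groups did not overlap, and its log2 fold change of -0.35 (limma adjusted p = 0.755) was -0.13 without TRPV3 replicate 1 (unadjusted p = 0.0827). Of 13 tested genes of the TSC and mTOR list 0 passed (limma) and 5 lay above 0, with a median of -0.01 that was 0.03 with the length trend removed. In that list TSC1, which restrains mTOR, had the lowest fold change among genes with separate groups (a log2 fold change of -0.18, and -0.06 without TRPV3 replicate 1).

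Of 13 other adaptors and receptor-proximal regulators tested 0 passed (limma) and 2 lay above 0, with a median of -0.12. That median was -0.02 without TRPV3 replicate 1, where 5 of 13 lay above 0. With the length trend removed it was -0.12, where 0 of 13 did. SH2B1, an adaptor that binds the insulin receptor, was at 6.79, 7.02 and 7.85 FPKM with mock and at 6.70, 6.69 and 6.67 FPKM with TRPV3, a log2 fold change of -0.09 (limma adjusted p = 0.755) that was -0.10 without that library. Among other IGF carriers and their proteases 5 of 10 were tested, 0 passed (limma) and the median was 0.00076, or -0.03 with the length trend removed. IGFBP7 was at 1.92, 1.95 and 1.68 FPKM with mock and 2.11, 2.03 and 2.01 FPKM with TRPV3, without overlap (log2 fold change 0.10, limma adjusted p = 0.755). This gene of 1.93 kb had 59 to 72 reads a library, and its fold change was -0.03 with the length trend removed. PAPPA, the protease that cleaves IGFBP4, was below the filter.

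The FOXO target list, genes reported to be driven by FOXO factors, held the widest spread. Of 15 tested 0 passed (limma), 5 lay above 0 and the median was -0.06, or -0.02 without TRPV3 replicate 1. Removal of the length trend left it at -0.06. GADD45A, a growth arrest and stress gene, was at 15.0, 18.0 and 19.0 FPKM with mock and 31.8, 22.2 and 22.9 FPKM with TRPV3, without overlap. Its log2 fold change was 0.53 (SE 0.15, unadjusted p = 0.0112, limma adjusted p = 0.755) and 0.37 without TRPV3 replicate 1 (limma adjusted p = 0.423). CDKN1A, which encodes the cell cycle inhibitor p21 and is named after its values were seen, was at 32.9, 27.8 and 28.6 FPKM with mock and 38.5, 36.7 and 35.9 FPKM with TRPV3 (0.31, unadjusted p = 0.00964, limma adjusted p = 0.755). Both genes are also known targets of p53 and of stress signals. In the other direction BCL6, a transcriptional repressor, was at 1.28, 1.38 and 1.35 FPKM with mock and 1.11, 1.01 and 1.10 FPKM with TRPV3 (-0.18, limma adjusted p = 0.755).

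Voom with sample quality weights called 3 of the 61, and so did voom with both TRPV3 replicate 1 and mock replicate 3 left out, each with 2 higher and 1 lower. The 3 genes were GADD45A, CDKN1A and FOXO6 in both fits, where 1.22% and 1.24% of all genes were called. FOXO6, a FOXO factor named after its values were seen, was at 8.19, 6.73 and 5.31 FPKM with mock and 6.36, 4.68 and 5.08 FPKM with TRPV3, with overlap. Its log2 fold change was -0.51 (adjusted p = 0.0332) with quality weights and -0.61 (adjusted p = 0.00394) without the 2 libraries, and -0.27 in the limma fit of all libraries (adjusted p = 0.755). Those 2 were its lowest mock library and its highest TRPV3 library, and leaving them out was chosen after seeing the data. In the libraries kept, mock replicates 1 and 2 lay above TRPV3 replicates 2 and 3.

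**Figure D4:**
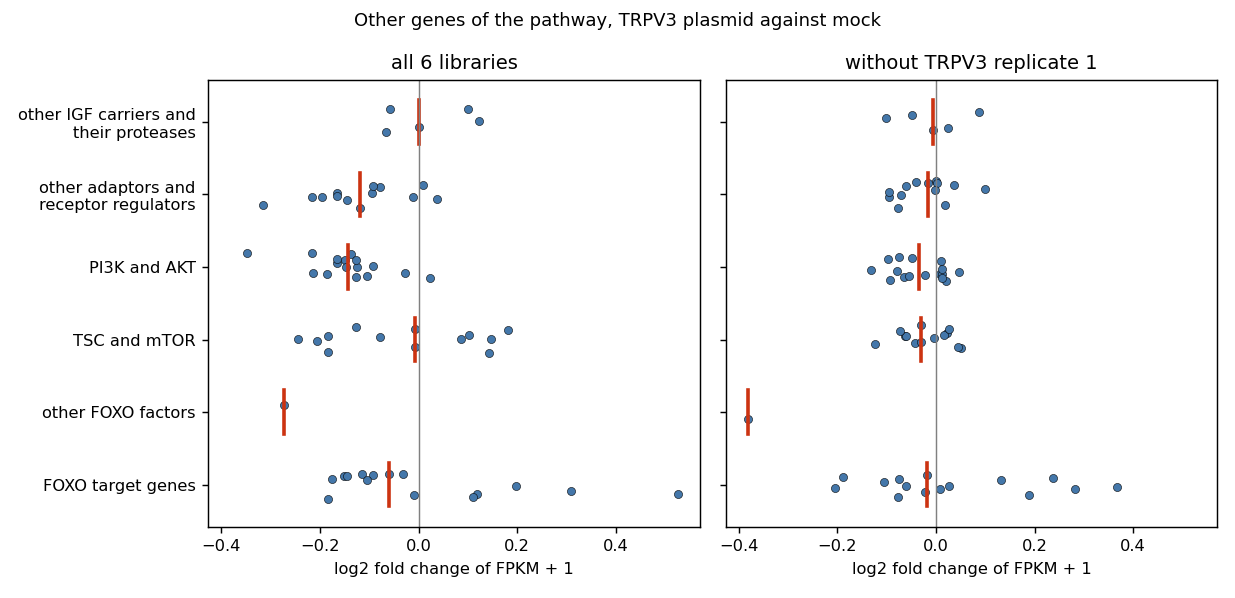
Log2 fold change of FPKM + 1 for the tested genes of each further list of the pathway (blue points, spread vertically for legibility) with the list median (red line), with all 6 libraries and without TRPV3 replicate 1. RICTOR and PIK3CA stand in 2 lists each, and the medians of the adaptor and PI3K lists move from -0.12 and -0.14 to -0.02 and -0.04 without that library.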

How the data were processed

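RNA of 6 SZ95 libraries was profiled, 3 per group. Per the labels' protocols, libraries were made from total RNA with a NEBNext Ultra kit, and the submitters' processing notes name HISAT2 2.0.5 and hg38. Neither a counting tool nor its strand mode was stated. The authors deposited FPKM per gene, per the file headers, with gene length and coordinates, which equal those of GENCODE 29 for 58735 of 58735 genes. FPKM times length gave whole multiples of 1 step in every library for 100% of values (tolerance 0.02 reads), and these were taken as reads. The divisor that this step implies was not the read total but was proportional to the median-of-ratios factor of each library. The deposited values thus already carry that scaling, and median-of-ratios scaling as an alternative left the fit unchanged.

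Values were analysed as log2(FPKM + 1), which understates the change of low genes, with R 4.3.3 and limma 3.58.1: a linear model of group with empirical Bayes and a mean-variance trend, over 12177 genes averaging 1 FPKM or more, Benjamini-Hochberg adjusted over all of them and called at an adjusted p under 0.05. Adjusted p-values come from this fit or from limma-voom on the recovered reads. The p-values reflect the spread between these libraries. The test was tried on simulated reads without a length trend or an outlying library, which cannot show how it behaves with a library like TRPV3 replicate 1.

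Members and gene lists were chosen with earlier results of these data known. Genes named beside the members were TRPV3, the ligands INS, IGF1 and IGF2, called genes, per list the largest rise and fall without overlap between groups, and the 3 genes nearest in profile to the 2 members of smallest p. Outside that rule, and after their values were seen, CDKN1A, FOXO6, INSRR, PAPPA and the overlapping or near-identical genes FOXO3B, AL162497.1 and LINC00598 were named. Alternatives were no filter or one of 5 FPKM on low values, a pseudocount of 0.1, TPM, quantile or median-of-ratios scaling, subtraction of each library's trend over gene length (lowess, span of 0.3), limma without trend, a replicate block, voom with and without sample quality weights, and each library left out. Chosen after seeing the data were voom without TRPV3 replicate 1, and both methods with that library and mock replicate 3 left out. Promoters came from RefSeq (GRCh38.p14). Plots used matplotlib 3.10.9 (Python 3.11.15).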

Additional observations from a re-analysis of the deposited data

How the results depend on the processing

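Genes called over the whole table numbered 5 with all libraries. They numbered 2 with no filter on low values, 3 with a filter of 5 FPKM, 148 by voom with sample quality weights, and 2 to 8 when 1 library was left out (8 without TRPV3 replicate 1, 2 or 3 without any other). Chosen after seeing the data, voom without TRPV3 replicate 1 called 71, and with mock replicate 3 also left out limma on FPKM called 10 and voom 151. The 0 members and 0 other pathway genes called became 1 and 3 by voom with quality weights and 1 and 3 by voom without both libraries, and stayed at 0 in the other settings, 0 to 0 when 1 library was left out; the cause was not tested. Samples of the same replicate number did not vary together (correlation of their deviations -0.27, -0.04 and -0.17), and a replicate block called 3 genes over the whole table (2 higher, 1 lower) and 0 members.

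Of the members' fold changes, those of INSR, IGF1R, IGF2R and IGFBP3 kept their sign in all alternatives that gave a value (7 for INSR, which passes no filter, and 20 for each of the others). In some of these the sign could not turn. The changed filters, limma without trend, the replicate block and median-of-ratios scaling leave a fold change as it was. IRS1 turned to 0.0838 by voom with quality weights and 0.122 by voom without TRPV3 replicate 1, IRS2 to 0.138 and 0.143, FOXO1 to 0.0485 and 0.0864, and FOXO3 to 0.0340 and 0.0782. With the length trend removed IRS2 was at 0.0202, FOXO1 at 0.0175 and IGFBP4 at -0.000127. Under quantile normalization FOXO1 was at 0.0194 and IGFBP4 at -0.0445, and by voom without TRPV3 replicate 1 IGFBP4 was at -0.0104. With both libraries left out, limma and voom gave 0.164 and 0.1802 for IRS2, 0.0585 and 0.102 for FOXO1, 0.0346 and 0.0387 for FOXO3, and -0.00364 and -0.00154 for IGFBP6. Leaving out 1 library gave -0.240 to 0.0627 for IRS1, -0.142 to 0.133 for IRS2, -0.0752 to 0.0514 for FOXO1, -0.236 to 0.0719 for FOXO3 and -0.0106 to 0.189 for IGFBP4, each with the turn of sign without TRPV3 replicate 1. The members' median of -0.04 was 0.05 without TRPV3 replicate 1, -0.12 without TRPV3 replicate 2, -0.14 without TRPV3 replicate 3, -0.01 without mock replicate 3 and -0.14 under TPM scaling, where the median of all genes was -0.08. Depth limits INSR and the ligands, at 0 to 12 reads a library.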

Other observations

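The 2 members with the smallest unadjusted p were IGFBP3 and IGF2R. By Euclidean distance between log2(FPKM + 1) profiles centred over the 6 libraries, the tested genes nearest to IGFBP3 were TINAGL1 (distance 0.0690), FAM200B (0.0708) and CDK20 (0.0795). TINAGL1 was at 47.9, 48.5 and 51.4 FPKM with mock and 54.7, 57.1 and 54.1 FPKM with TRPV3, separate groups as in IGFBP3. Nearest to IGF2R were PDPR (0.0365), TAOK1 (0.0606) and CD109 (0.0650). PDPR was at 14.9, 13.7 and 12.6 FPKM with mock and 6.24, 12.9 and 13.4 FPKM with TRPV3, with TRPV3 replicate 1 the lowest library as in IGF2R. The likeness is over 6 libraries of 2 groups and is a description with no test.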
